A study of Rattus norvegicus with 17 samples.

Results

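The 6 genes described here, Cd69, Cxcr4, S1pr1, Klf2, Ccr7 and Selplg, set how T cells enter, stay in and leave lymph nodes. They were chosen by name, and each was found as 1 transcript cluster annotated to that symbol alone, out of 14506 genes so annotated. All 6 passed the filter on low values and were among the 10879 genes tested. Their expression was measured in CD4+ T cells isolated by flow cytometry. The inguinal lymph nodes came from female, age-matched Dark Agouti rats, a strain susceptible to experimental autoimmune encephalomyelitis (EAE), the rodent model of multiple sclerosis. All rats, controls included, had been immunized with myelin oligodendrocyte glycoprotein (MOG) 7 days earlier, so no unimmunized group was compared. From 5 weeks before immunization to the end, the rats ate feed with vitamin D at 0 IU in the deprived group (5 arrays), 2 IU in the regular group (6 arrays) and 10 IU in the supplemented group (6 arrays). The comparisons asked how dietary vitamin D relates to the transcriptome of these cells. Neither the amount of feed behind these IU nor the antibodies of the sort are stated in the sources at hand.

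T cells enter lymph nodes through high endothelial venules, where selectins slow them on glycosylated ligands and the chemokine receptor CCR7 responds to CCL19 and CCL21. They leave when the receptor S1PR1 senses sphingosine 1-phosphate, which is abundant in lymph and scarce in the tissue. CD69, an early activation antigen, binds S1PR1 and draws it inside the cell, which holds activated cells in the node. In mice, the transcription factor KLF2 activates S1pr1, and Foxo1 acts upstream of Klf2. CXCR4 is the receptor for CXCL12, a stromal chemokine that attracts and retains lymphocytes, and PSGL-1, the product of Selplg, is the P-selectin ligand of T cells.

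Promoter sequence was at hand for 2 of the 6 genes, S1pr1, the egress receptor that was lower in supplemented rats, and Cxcr4, the retention receptor that was higher in deprived rats. The 250 bases before each annotated start are shown 5′ to 3′ from the minus strand of the RefSeq genes of GRCr8, with the 50 bases nearest the start in capitals.
S1pr1 (chr2:206314071-206314320): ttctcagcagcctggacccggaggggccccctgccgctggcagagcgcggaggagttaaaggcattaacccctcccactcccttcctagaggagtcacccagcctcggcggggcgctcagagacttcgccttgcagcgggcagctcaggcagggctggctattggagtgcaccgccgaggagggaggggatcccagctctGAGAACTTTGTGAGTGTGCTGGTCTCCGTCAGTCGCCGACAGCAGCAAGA
Cxcr4 (chr13:42634289-42634538): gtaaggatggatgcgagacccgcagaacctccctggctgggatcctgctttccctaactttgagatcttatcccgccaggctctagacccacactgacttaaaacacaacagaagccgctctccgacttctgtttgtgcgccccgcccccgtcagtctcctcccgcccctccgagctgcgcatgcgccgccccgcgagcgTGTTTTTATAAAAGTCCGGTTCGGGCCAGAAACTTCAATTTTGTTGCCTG
G and C made up 64.8% of the S1pr1 stretch and 57.6% of the Cxcr4 stretch. Windows of these 250 bases and the 50 that follow were searched on both strands for the KLF core CCACCC and its fuller form CCACACCC, for the vitamin D receptor half-sites AGGTCA and GGTTCA, and for the forkhead core TGTTTAC. These letters occur in 29.4%, 3.22%, 16.2%, 11.7% and 3.78% of 33469 rat promoter windows of the same length, in that order. Neither gene had a match to any of the 5 in its window, which says only that these letters are not in that stretch.

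Values are log2 expression values, in which a difference of 1 is a doubling, and differences between diets are differences of mean log2 values with 95% intervals. They come from limma, which fitted 1 model to the 17 arrays, and p-values were adjusted with Benjamini-Hochberg over the 10879 genes. A gene was called higher or lower where its adjusted p was below 0.05. Of the CD4+ T cell markers 11 of 12 lay above the level filter, with array means of 10.38 to 10.59 on deprived, 10.41 to 10.62 on regular and 10.18 to 10.39 on supplemented arrays. Supplemented arrays stood apart from the others in spread, the standard deviation (SD) of all values on an array. It was 2.051 ± 0.0166 (SD, n = 5) at 0 IU, 2.026 ± 0.022 (SD, n = 6) at 2 IU and 1.943 ± 0.0271 (SD, n = 6) at 10 IU. Supplemented arrays differed from regular arrays by -0.083 (two-sided exact permutation p = 0.00216, the smallest possible here, adjusted p = 0.00325 over 3 comparisons). Supplemented replicates 2 and 5 had the smallest spread. The number of arrays limits the precision of every value, and in RNA from a sorted population, fewer cells of a kind and less RNA per cell cannot be told apart.

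The retention genes Cd69 and Cxcr4 were both higher in T cells of vitamin D deprived rats. Cd69 stood at 10.43, 10.34, 10.81, 10.62 and 10.73 on the 5 deprived arrays, and at 9.83 to 10.14 with a median of 9.97 on the 6 regular arrays. Every deprived array lay above every regular array, by at least 0.20. The difference was 0.62 (SE 0.09, 95% interval 0.43 to 0.81), or 1.53-fold, with a limma adjusted p = 0.00102.

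Cxcr4 gave 9.58, 9.51, 9.90, 9.64 and 9.64 on the deprived arrays. The regular arrays lay close together, from 8.96 to 9.11 with a median of 9.06. Again no deprived array overlapped a regular one, and the gap was 0.40. Cxcr4 was higher in deprived rats by 0.60 (SE 0.07, 95% interval 0.45 to 0.75), or 1.51-fold (limma adjusted p = 0.000124). Deprived replicate 4 had the highest value of the group for both genes.

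Set against the regular diet, supplementation came with small differences of the same 2 genes. Cd69 ranged from 9.53 to 10.01 with a median of 9.75 on supplemented arrays, against 9.83 to 10.14 on regular arrays. The groups overlapped, with 4 of 6 supplemented arrays below all regular arrays, and the difference of -0.19 (95% interval -0.37 to -0.01) was not called (limma adjusted p = 0.0926). It passed at -0.24 without supplemented replicate 4 (adjusted p = 0.0403) and at -0.27 with every array centred on its median (adjusted p = 0.0245), while quantile normalization left -0.01 (adjusted p = 0.947) and cyclic loess -0.01 (adjusted p = 0.954).

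Cxcr4 ran from 8.70 to 9.00 with a median of 8.91 on supplemented arrays, against 8.96 to 9.11 on regular arrays. The groups overlapped, with 4 of 6 supplemented arrays below all regular arrays. Its difference of -0.18 (SE 0.07, 95% interval -0.32 to -0.04) was called lower by a narrow margin (limma adjusted p = 0.0481). The call was lost in 21 of 33 other settings, among them the omission of any of 12 single arrays (every regular array but replicate 6, deprived replicates 2, 5 and 6, and supplemented replicates 1, 2, 3 and 5, adjusted p up to 0.121). After quantile normalization the difference was -0.02 (adjusted p = 0.857).

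Between the extremes of the diet, supplemented arrays had lower values of both retention genes than deprived arrays, with no overlap. Cd69 differed by -0.81 (SE 0.09, limma adjusted p = 8.46e-07), which is 1.75-fold lower, with a gap of 0.33 between the groups. Cxcr4 differed by -0.78 (SE 0.07, limma adjusted p = 1.73e-07), which is 1.71-fold lower, with a gap of 0.51. As deposited, the means of both genes were highest at 0 IU, then at 2 IU, then at 10 IU. The arrays at 10 and 2 IU overlapped, and their means differed by at most 0.02 after quantile normalization or cyclic loess, so these 2 diets have no settled order for either gene.

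**Figure D1:**
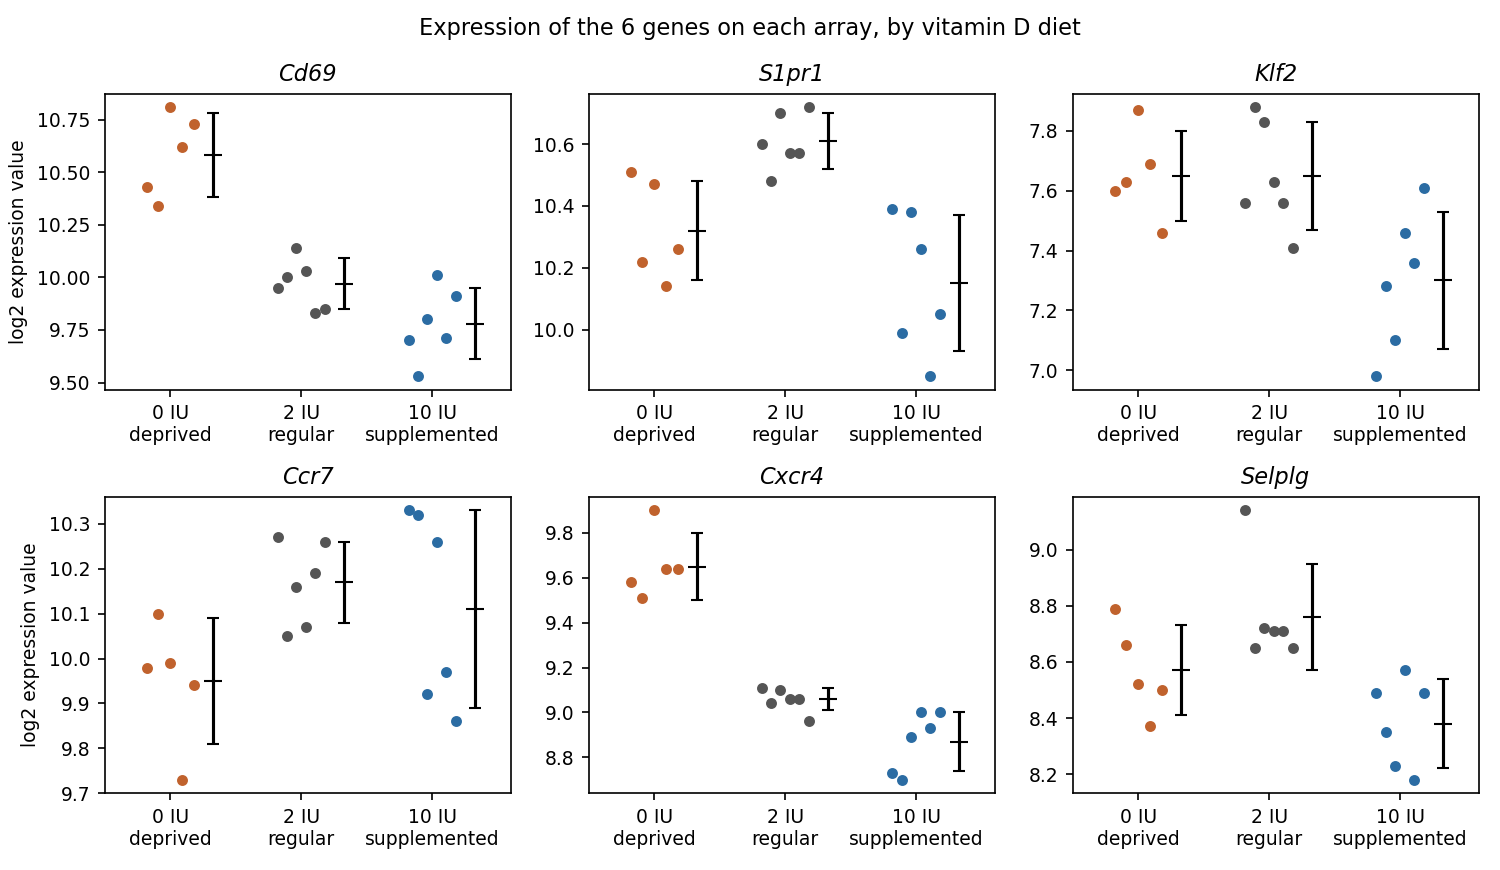
Log2 expression value of each gene on each array (points), by diet, with the mean and SD of the diet (line and bar, n = 5, 6 and 6); each panel has its own axis, which does not start at 0. Deprived arrays of Cd69 and Cxcr4 lie above all others, and the supplemented arrays of S1pr1 and Selplg lie below all regular arrays.

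The egress receptor S1pr1 had its highest mean on the regular diet and was lower in supplemented rats. The supplemented arrays ranged from 9.85 to 10.39 with a median of 10.16, against 10.48 to 10.72 with a median of 10.59 on regular arrays. The 2 groups did not overlap, with a gap of 0.09. S1pr1 was lower in supplemented rats, at -0.45 (SE 0.09, 95% interval -0.64 to -0.27), which is 1.37-fold lower (limma adjusted p = 0.000521).

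On the 5 deprived arrays S1pr1 stood at 10.51, 10.22, 10.47, 10.14 and 10.26. Of these, 4 lay below all regular arrays and replicate 2 lay among them. The difference from the regular diet was -0.29 (SE 0.09, 95% interval -0.48 to -0.09), which was not called over all genes (limma unadjusted p = 0.00551, adjusted p = 0.121). It passed in 4 of 33 other settings: cyclic loess (-0.36, adjusted p = 0.0337), array weights (-0.28, adjusted p = 0.0278), the array spread as a covariate (-0.41, adjusted p = 0.0253) and a fit to those 2 diets alone (-0.29, adjusted p = 0.0355). Over all 33, its adjusted p ran from 0.0253 to 0.24. Supplemented and deprived arrays overlapped, with a difference of -0.17 (95% interval -0.36 to 0.03, limma adjusted p = 0.14). By mean level the order was thus 2 IU (10.61 ± 0.09, SD), 0 IU (10.32 ± 0.16) and 10 IU (10.15 ± 0.22), in which neither step between neighbours was called and the whole distance was. The order of 0 and 10 IU turned with the scaling, since supplemented minus deprived was 0.09 on quantile-normalized arrays (adjusted p = 0.446), 0.09 with cyclic loess (adjusted p = 0.399) and 0.38 with the array spread as a covariate (adjusted p = 0.429).

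Klf2, the activator of S1pr1 in mice, was lower in supplemented rats than in regular or deprived rats. It ranged from 6.98 to 7.61 with a median of 7.32 on supplemented arrays, against 7.41 to 7.88 with a median of 7.60 on regular arrays. The groups overlapped, and 4 of 6 supplemented arrays lay below all regular ones. The difference was -0.35 (SE 0.10, 95% interval -0.55 to -0.14), which is 1.27-fold lower (limma adjusted p = 0.0102). It was not called with the mean of the macrophage markers as a covariate (-0.39, adjusted p = 0.0614).

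The deprived arrays of Klf2 held 7.60, 7.63, 7.87, 7.69 and 7.46, all within the range of the regular arrays. Their mean differed from that of the regular diet by 0.00 (95% interval -0.21 to 0.22, limma adjusted p = 0.988). Supplemented arrays were lower than deprived arrays, at -0.35 (SE 0.10, limma adjusted p = 0.00875), which is 1.28-fold lower, with 5 of 6 supplemented arrays below all deprived ones. The mean was 7.65 ± 0.15 at 0 IU, 7.65 ± 0.18 at 2 IU and 7.30 ± 0.23 at 10 IU (SD).

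Ccr7, the entry receptor, was called in none of the 3 comparisons. Supplemented arrays ranged from 9.86 to 10.33 with a median of 10.12, against 10.05 to 10.27 with a median of 10.17 on regular arrays. The difference was -0.06 (95% interval -0.24 to 0.12, limma adjusted p = 0.605). The 6 supplemented arrays fell into 3 at or below 9.97 and 3 at or above 10.26, and this gap of 0.29 was wider than the whole range of the regular arrays, 0.22.

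Deprived arrays of Ccr7 read 9.98, 10.10, 9.99, 9.73 and 9.94, of which 4 lay below all regular arrays. The difference from the regular diet was -0.22 (95% interval -0.40 to -0.03), and it was not called (limma unadjusted p = 0.0221, adjusted p = 0.207). Supplemented arrays stood 0.16 above deprived arrays (95% interval -0.02 to 0.35, limma adjusted p = 0.139). That last difference passed as higher with arrays normalized by quantiles (0.41, adjusted p = 0.00167), by cyclic loess (0.41, adjusted p = 0.00125) and with the mean of the B cell markers as a covariate (0.28, adjusted p = 0.0329), with an adjusted p of up to 0.662 over the 33 settings. By mean level Ccr7 ran from 10.17 ± 0.09 at 2 IU over 10.11 ± 0.22 at 10 IU to 9.95 ± 0.14 at 0 IU (SD), with no call between neighbours or ends. The order of 2 and 10 IU turned with the scaling. Supplemented minus regular was 0.11 on quantile-normalized arrays (limma adjusted p = 0.355) and 0.12 with cyclic loess (adjusted p = 0.305).

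Selplg, which encodes the selectin ligand PSGL-1, was lower in supplemented rats. It ranged from 8.18 to 8.57 with a median of 8.42 on supplemented arrays, against 8.65 to 9.14 with a median of 8.71 on regular arrays. The 2 groups did not overlap, with a gap of 0.08. The difference was -0.38 (SE 0.09, 95% interval -0.57 to -0.19), which is 1.30-fold lower (limma adjusted p = 0.0027).

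Regular replicate 1 held the value of 9.14, while the other 5 regular arrays lay at or below 8.72. Deprived arrays of Selplg read 8.79, 8.66, 8.52, 8.37 and 8.50, with 3 of 5 below all regular arrays. Their difference from the regular diet was -0.20 (95% interval -0.39 to 0.00, limma adjusted p = 0.3). Supplemented and deprived arrays differed by -0.18 (95% interval -0.38 to 0.01, limma adjusted p = 0.109), which was not called. The order of the means was 2 IU (8.76 ± 0.19, SD), 0 IU (8.57 ± 0.16) and 10 IU (8.38 ± 0.16), and as for S1pr1 the call lay between the ends. The order of 0 and 10 IU was not settled here either. Supplemented minus deprived was 0.00 on quantile-normalized arrays (adjusted p = 0.976) and with cyclic loess (adjusted p = 1), and 0.37 with the array spread as a covariate (adjusted p = 0.442).

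**Figure D2:**
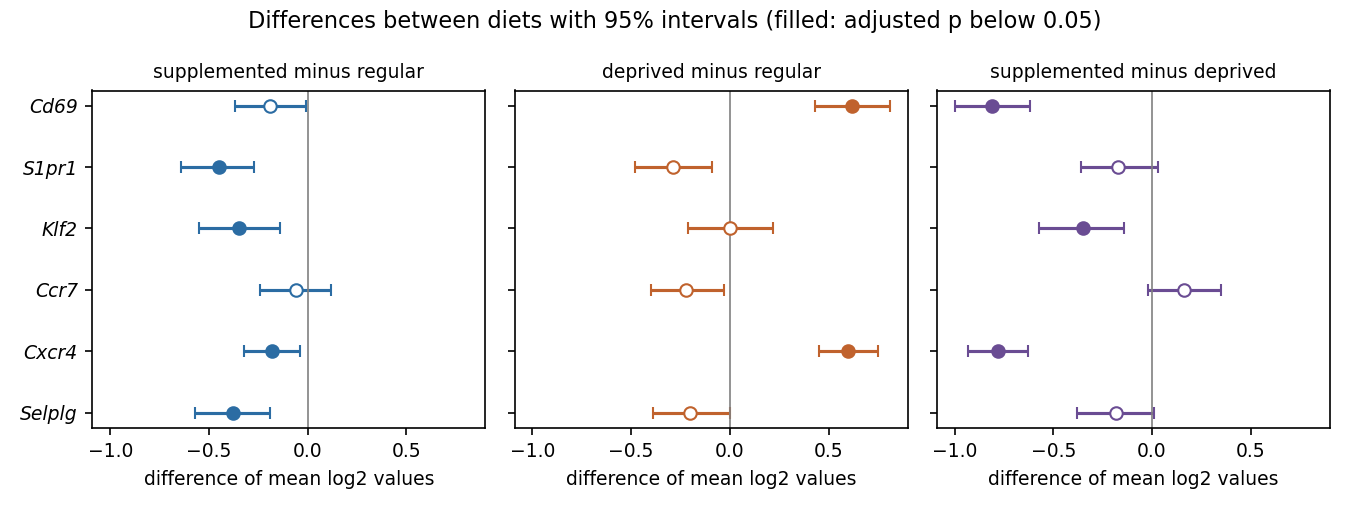
Differences of mean log2 values between diets (points) with 95% intervals (bars) for the 6 genes, supplemented minus regular, deprived minus regular and supplemented minus deprived; filled points have an adjusted p below 0.05. The deprived diet has 2 filled points, Cd69 at 0.62 and Cxcr4 at 0.60, while the filled points of the supplemented diet all lie below 0.

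Over the 3 diets, 5 of the 6 genes passed limma's moderated F test and Ccr7 did not (adjusted p = 0.108), against 45.3% of all genes tested. For supplemented minus regular, 4 of 6 were called lower and 0 higher (limma, 5 lower and 0 higher at an unadjusted p below 0.05), with a median difference of -0.27 beside 0.00 over all genes. Of all genes tested, 22.9% were lower and 10.8% higher in this comparison (limma, 2958 lower and 1954 higher at an unadjusted p below 0.05). Of the brightest 25% of genes, which hold 5 of the 6 (Klf2 is dimmer), 52.6% were lower. The arrays did not overlap for 2 of the 6, S1pr1 and Selplg, against 9.92% of all genes in that direction.

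For deprived minus regular, 2 of 6 were called higher and 0 lower, beside 1.49% higher and 0.184% lower among all genes. Among the brightest 25%, 4.01% were higher. At an unadjusted p below 0.05 (limma) 2 of the 6 were higher and 2 lower, beside 1190 and 626 of the 10879 genes. The arrays did not overlap for the 2 genes called, Cd69 and Cxcr4, against 4.52% of all genes in that direction. For supplemented minus deprived, 3 of 6 were called lower, Cd69, Klf2 and Cxcr4, beside 28.6% of all genes and 65.3% of the brightest 25%. Called higher were 0 of the 6, beside 18.6% of all genes. At an unadjusted p below 0.05 (limma) 0 of the 6 were higher, beside 2564 of the 10879 genes. The arrays did not overlap for Cd69 and Cxcr4, against 17.7% of all genes in that direction. Both comparisons with the regular diet use the same 6 regular arrays, so their values are not independent of each other.

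The range of values on an array moved with some of these genes within diets. With diet means removed, S1pr1 was higher on arrays of wider spread (Pearson r = 0.69, permutation p = 0.00648, adjusted p = 0.0194 over the 6 genes; Spearman rho = 0.66, permutation p = 0.0087, adjusted p = 0.0396; n = 17). Selplg did likewise (r = 0.69, permutation p = 0.00583, adjusted p = 0.0194; rho = 0.64, permutation p = 0.0132, adjusted p = 0.0396; n = 17). Without the 2 arrays farthest from the median spread, r was 0.72 for S1pr1 and 0.51 for Selplg. For Cd69, Cxcr4, Klf2 and Ccr7 r lay between -0.18 and 0.22, and none passed. Spread was computed from all values on an array, those of bright genes included. How many of all genes follow it was not tested, so the relation is not known to be particular to S1pr1 and Selplg.

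The spread also bears on the supplemented comparison as a whole, since no supplemented array overlapped a regular or deprived array in it. With spread as a covariate, 0 of 10879 genes were called for supplemented minus regular (limma, 1192 with an unadjusted p below 0.05). S1pr1 then differed by -0.03 (adjusted p = 0.956), Selplg by 0.05 (adjusted p = 0.927) and Klf2 by -0.48 (adjusted p = 0.38). Supplemented diet and narrow spread came together, so this model cannot tell them apart. A call lost in it does not show that a difference is absent. After quantile normalization, which gives all arrays one distribution, the difference was -0.27 for S1pr1 (adjusted p = 0.0125), and Klf2 and Selplg were called too. For deprived minus regular, Cd69 and Cxcr4 were called in all 33 other settings, at 0.54 to 0.68 and at 0.52 to 0.63.

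**Figure D3:**
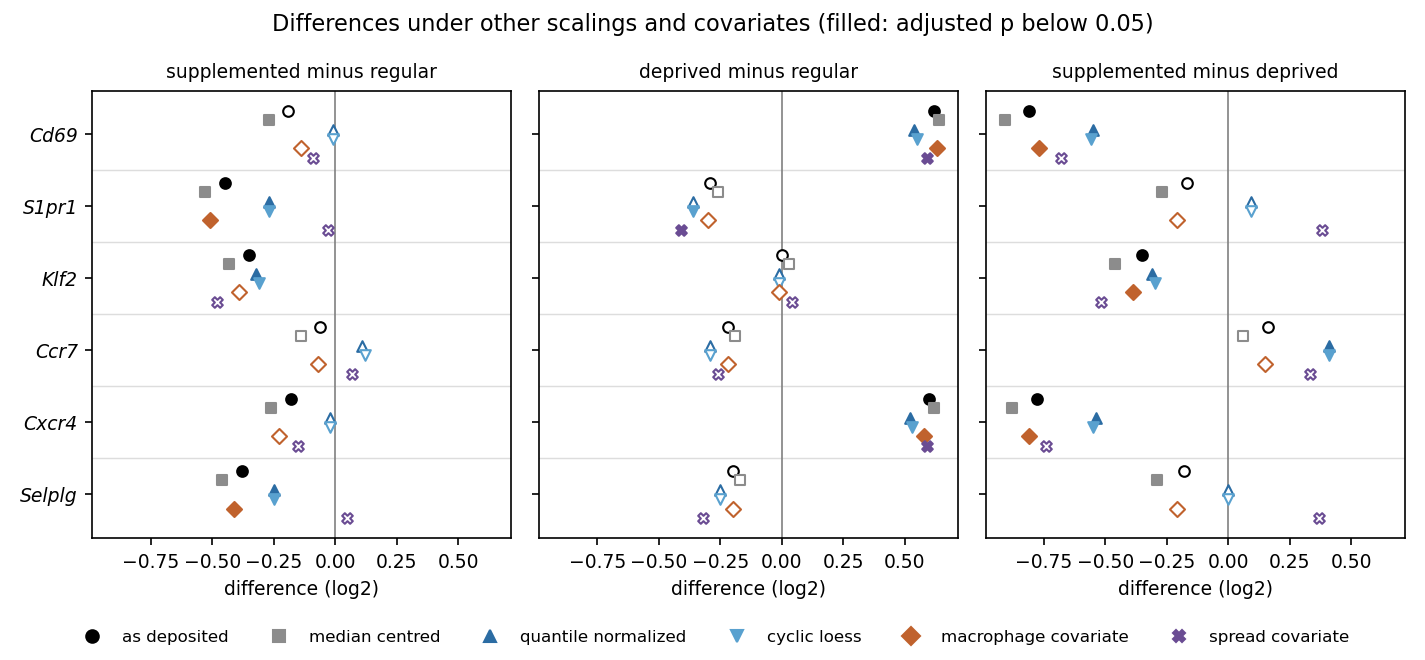
Differences between diets (x axis, log2) for the 6 genes as deposited and under 3 other scalings and 2 covariates (marker shapes); filled markers have an adjusted p below 0.05. Cd69 and Cxcr4 stay near 0.6 for deprived minus regular, while S1pr1 and Selplg move to -0.03 and 0.05 for supplemented minus regular with the spread covariate.

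Among single arrays of one diet, Cd69 and Cxcr4 went together. With diet means removed, their Pearson r was 0.81 (permutation p = 0.00036, adjusted p = 0.0054 over 15 pairs of the 6 genes) and their Spearman rho 0.73 (permutation p = 0.00164, adjusted p = 0.0246), over 17 arrays. Without the 2 arrays farthest from the median of Cd69 it was 0.71 and missed the threshold (adjusted p = 0.0577). Values of 2 genes from one array share its RNA and its scaling.

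No other pair passed as deposited. The next was Klf2 with Cxcr4, at r = 0.62 (permutation p = 0.0137, adjusted p = 0.102), with rho = 0.53 (permutation p = 0.0473, adjusted p = 0.178), which passed after quantile normalization (r = 0.67, adjusted p = 0.0383). Klf2 and S1pr1, a regulator and its target in mice, had r = -0.34 (permutation p = 0.254, adjusted p = 0.423) and rho = -0.47 (permutation p = 0.0925, adjusted p = 0.277). A p that misses the threshold at 17 arrays does not show that a pair is unrelated.

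**Figure D4:**
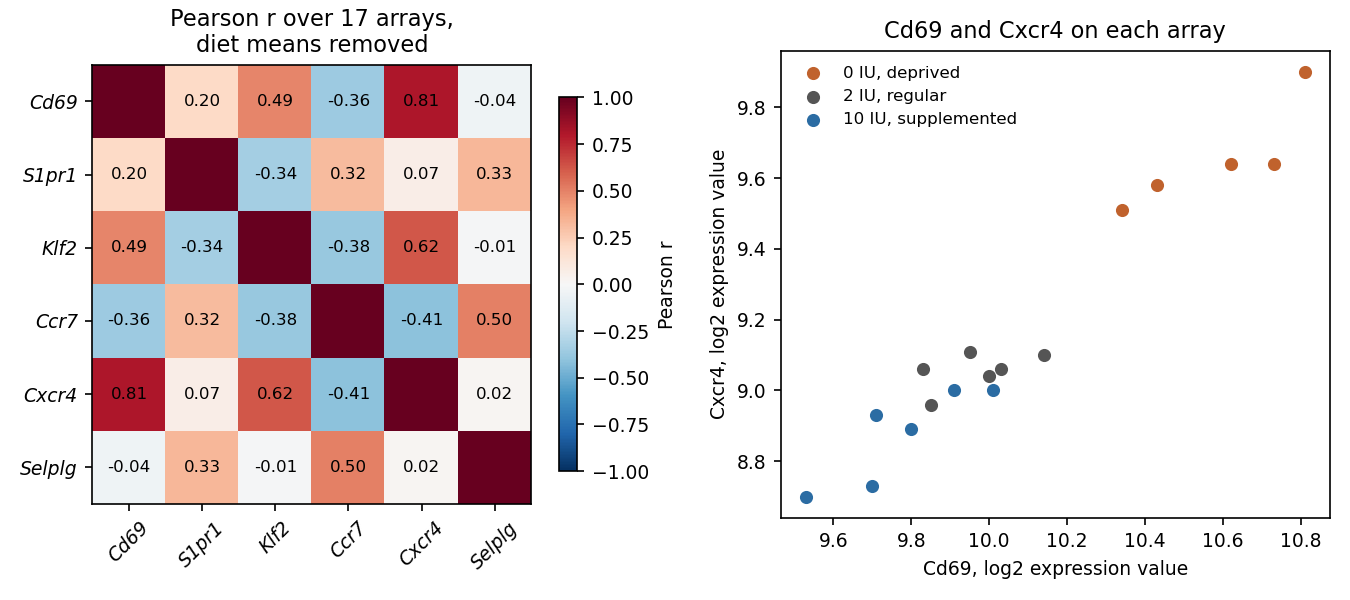
Left, Pearson r between the 6 genes over 17 arrays with diet means removed; right, the log2 values of Cd69 (x axis) and Cxcr4 (y axis) on each array, by diet. The pair Cd69 and Cxcr4 has the highest r on the left, 0.81, and on the right the 5 deprived arrays lie apart at the upper end.

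By Pearson r over the 17 arrays, diets included, the gene most like Cd69 of all those tested was Cxcr4 (0.971), followed by the HSP90 co-chaperone gene Chordc1 (0.934) and the heat shock gene Hsph1 (0.921). After removal of diet means these were 0.809, 0.527 and 0.479. For Cxcr4 the order was Cd69, Hsph1 (0.936, and 0.464 within diets) and Chordc1 (0.921, and 0.203 within diets). The genes most like S1pr1 were C8g (0.896), Rack1 (0.88), which encodes a ribosomal scaffold protein, and the ribosomal protein-like gene Rpl37l1 (0.874).

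The genes most like Klf2 were Aldh2 (0.848), which encodes a mitochondrial aldehyde dehydrogenase, the DNA ligase gene Lig1 (0.841) and Edf1 (0.836). Ccr7 was nearest to Tmem192 (0.88), Copz1 (0.851), which encodes a coatomer subunit, and Sharpin (0.848). Selplg was nearest to Cnppd1 (0.948), Sh3bgrl3 (0.927) and the selenoprotein gene Selenow (0.927), and these held at 0.933, 0.882 and 0.851 after removal of diet means. These genes were the highest of 10879, so their r describes a ranking.

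The other genes of the same processes were counted in 5 lists with 95 genes, of which 83 were tested. For supplemented minus regular, 26 of 83 were lower (31.3%, against 22.9% of all genes) and 4 higher (4.82%, against 10.8%), with a median of -0.09. The split depended on the scaling, with 13 lower and 7 higher after quantile normalization, 14 and 8 after cyclic loess, and 33 and 1 with every array centred on its median. For deprived minus regular, 1 was higher (1.2%, against 1.49% of all genes) and 0 were lower (against 0.184%), with a median of 0.03. This is near the share of all genes, and the 0 calls of single lists given below stand beside the same shares. At an unadjusted p below 0.05 (limma) 8 were higher and 3 lower, beside 1190 and 626 of the 10879 genes. Unadjusted counts of single lists given below for deprived minus regular stand beside these. For supplemented minus deprived, 36 were lower (43.4%, against 28.6% of all genes) and 11 higher (13.3%, against 18.6%), with a median of -0.15. Without supplemented replicates 2 and 5, 17 of the 83 were called for supplemented minus regular rather than 30, and 10 with the macrophage marker mean as a covariate and 0 with array spread as one.

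Entry depends on the sugars that selectins bind, and of 12 tested genes of selectins and selectin ligand synthesis 2 were lower in supplemented rats (16.7%, against 22.9% of all genes). The 1 gene of all 5 lists called in deprived rats was C1galt1c1, the chaperone of the enzyme that builds core 1 O-glycans such as those on PSGL-1. It averaged 9.51 ± 0.08 on deprived arrays (SD, n = 5) and 9.13 ± 0.15 on regular arrays (SD, n = 6). The difference of 0.38 (SE 0.09, limma adjusted p = 0.0257) was lost without any 1 of deprived replicates 2, 3, 4 and 6 or regular replicates 1, 5 and 6 (adjusted p up to 0.0751).

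In supplemented rats C1galt1c1 was lower, at -0.27 (SE 0.08, limma adjusted p = 0.0156), but not after quantile normalization (-0.11, adjusted p = 0.384). St3gal4, a sialyltransferase of selectin ligands, was lower, at -0.49 (SE 0.09, limma adjusted p = 0.000382), and at -0.56 after quantile normalization (adjusted p = 0.000429). The venule genes Selp, which encodes P-selectin, and Glycam1, which encodes a mucin-like glycoprotein of these venules, differed by 0.15 and 0.20 for supplemented minus regular and did not pass (limma adjusted p = 0.0937 and 0.104), though Selp did without regular replicate 5. For supplemented minus deprived both were higher, Selp by 0.22 (SE 0.07, limma adjusted p = 0.0182) and Glycam1 by 0.27 (SE 0.10, limma adjusted p = 0.0292). Both are dim, not far above the level filter of 5.321. Selp averaged 5.98 on supplemented and 5.76 on deprived arrays, and Glycam1 5.85 and 5.57. Neither passed after quantile normalization (0.10 and 0.15, adjusted p = 0.293 and 0.283) or without deprived replicate 4, and Glycam1 did not pass without deprived replicate 6 or supplemented replicate 2 or 5.

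Of 20 tested genes of the chemokine axis, 5 were lower (25%, against 22.9% of all genes) and 1 higher (5%, against 10.8%) in supplemented rats, so these shares say nothing particular about the list. Among the lower genes were Gnai2 (-0.49, SE 0.10, limma adjusted p = 0.0006) and Gnai3 (-0.45, SE 0.09, limma adjusted p = 0.00076), the inhibitory G protein subunits that CCR7, CXCR4 and S1PR1 signal through, and the regulators of G protein signalling Rgs1 and Rgs2. Rgs1, which restrains responses to chemokines, averaged 6.96 ± 0.52 on supplemented arrays, against 7.78 ± 0.18 on regular arrays (SD, n = 6 each), and Rgs2 7.78 ± 0.66 on supplemented arrays, against 8.75 ± 0.36 on regular arrays. The differences were -0.82 for Rgs1 (SE 0.20, limma adjusted p = 0.00308) and -0.98 for Rgs2 (SE 0.26, limma adjusted p = 0.00578), and Rgs2 missed the threshold without supplemented replicates 2 and 5 together (-0.78, adjusted p = 0.0567). In deprived rats 0 genes of this list were called (limma, 4 at an unadjusted p below 0.05), and there Rgs1 differed by 0.21 and Rgs2 by 0.40.

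Of 10 tested genes of the sphingosine 1-phosphate axis, 2 were lower (20%, against 22.9% of all genes) and 1 higher (10%, against 10.8%) in supplemented rats, and 0 were called in deprived rats (limma, 1 at an unadjusted p below 0.05). Plpp1, a lipid phosphatase that can degrade sphingosine 1-phosphate, was higher by 0.34 (SE 0.07, limma adjusted p = 0.00144). It is also dim, at 6.12 on supplemented and 5.79 on regular arrays with the level filter at 5.321. Gnaq was lower, at -0.35 (SE 0.10, limma adjusted p = 0.0122), and narrowly so after quantile normalization (-0.27, adjusted p = 0.0472). Its call was lost with the macrophage marker mean as a covariate (-0.35, adjusted p = 0.113). It was also lost without supplemented replicates 2 and 5 together (-0.23, adjusted p = 0.0839). Dnm2, the dynamin that takes S1PR1 into the cell, was lower, at -0.24 (SE 0.07, limma adjusted p = 0.0181), but not without supplemented replicate 2 or 5 (adjusted p up to 0.052) nor after quantile normalization (-0.08, adjusted p = 0.405). Gna13 was lower for supplemented minus deprived at -0.42 (SE 0.11, limma adjusted p = 0.00487), but not after quantile normalization (-0.18, adjusted p = 0.18). S1pr4, a second sphingosine 1-phosphate receptor of lymphocytes, was called in no comparison, with differences of -0.14, -0.07 and -0.07 for supplemented minus regular, deprived minus regular and supplemented minus deprived.

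Of 16 tested regulators of transcription, 2 were lower (12.5%, against 22.9% of all genes) and 1 higher (6.25%, against 10.8%) in supplemented rats, and 0 were called in deprived rats (limma, 1 at an unadjusted p below 0.05). Klf7 was lower, at -0.46 (SE 0.11, limma adjusted p = 0.0034) and Stat3, the factor of interleukin-6 signalling, at -0.42 (SE 0.10, limma adjusted p = 0.00262). Foxo4 was higher by 0.21 (limma adjusted p = 0.0355), a call lost without supplemented replicate 1 or regular replicate 1, 5 or 6 (adjusted p up to 0.0928) and after quantile normalization (0.18, adjusted p = 0.0675). Klf6 was lower for supplemented minus deprived, at -0.50 (SE 0.14, limma adjusted p = 0.00675).

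Foxo1, which acts upstream of Klf2 in mice, was not called as deposited. It averaged 9.42 ± 0.05 at 0 IU (SD, n = 5), 9.48 ± 0.10 at 2 IU and 9.56 ± 0.10 at 10 IU (SD, n = 6 each). The difference of 0.09 for supplemented minus regular (limma adjusted p = 0.274) was 0.27 after quantile normalization and passed as higher (adjusted p = 0.00371), and likewise 0.40 for supplemented minus deprived (adjusted p = 0.000156).

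Of 25 tested genes of integrins and motility, 15 were lower in supplemented rats, with a list median of -0.24. This is 60%, against 22.9% of all genes and 52.6% of the brightest 25%, and 1 gene was higher (4%, against 10.8%). Most of the list was brighter than Selplg, which is in that 25%, so its share lies near that of bright genes. In deprived rats 0 were called (limma, 3 at an unadjusted p below 0.05). Msn, which encodes moesin, a linker of membrane and actin, was lower, at -0.74 (SE 0.11, limma adjusted p = 4.91e-05), Ezr (ezrin) at -0.28 (SE 0.06, adjusted p = 0.00211) and Rdx (radixin) at -0.35 (SE 0.09, adjusted p = 0.0042). Rassf5, the RAPL protein that links chemokine receptors to the integrin LFA-1, was lower, at -0.40 (SE 0.07, limma adjusted p = 0.000235). After quantile normalization the list held 4 lower and 4 higher genes, with a median of -0.08. Msn and Rassf5 were among the lower ones then, at -0.56 and -0.24, while Ezr and Rdx did not pass.

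**Figure D5:**
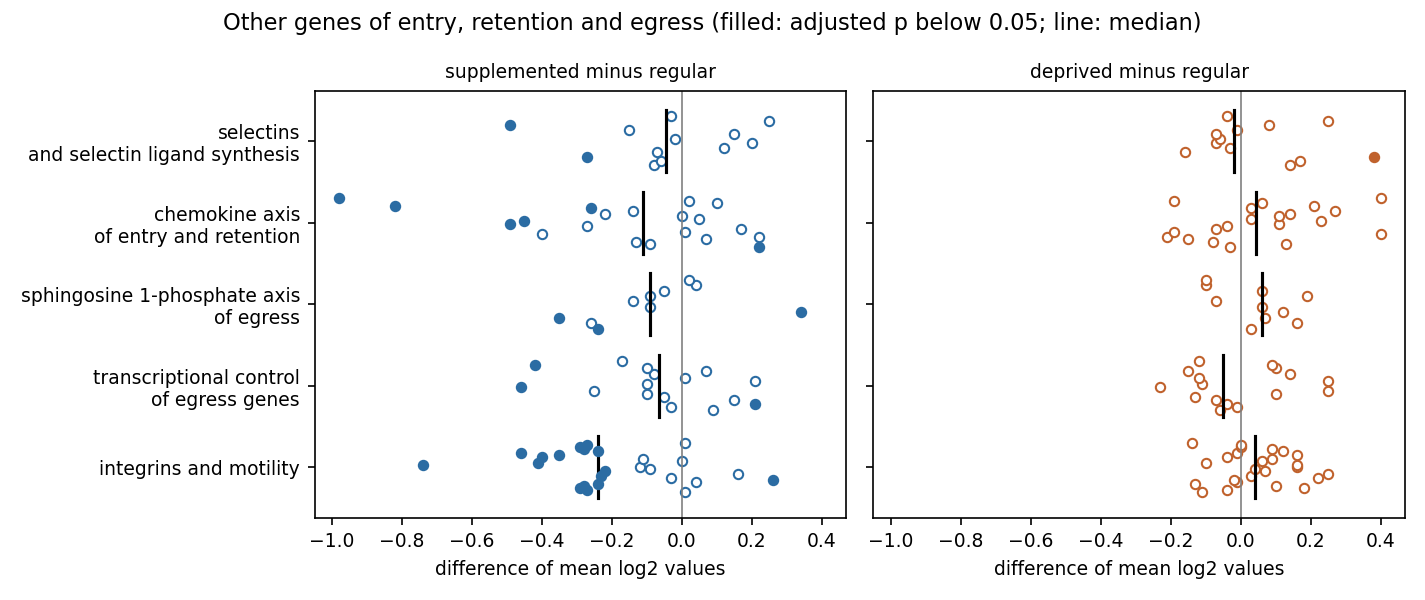
Differences of mean log2 values for the 83 tested genes of the 5 lists (points, filled where the adjusted p is below 0.05) with the median of each list (line), for supplemented minus regular and deprived minus regular. In the supplemented panel 30 points are filled, 15 of them lower genes of integrins and motility, and in the deprived panel 1 point, C1galt1c1 at 0.38, is filled.

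Several heat shock and glucocorticoid-induced genes were also higher in deprived rats. Of 15 tested genes of cell handling and early response, 5 were higher (33.3%, against 1.49% of all genes) and 0 lower in deprived rats. At an unadjusted p below 0.05 (limma) 6 were higher and 0 lower, beside 1190 and 626 of the 10879 genes. Array means of the list were 9.01 to 9.42 on deprived arrays, against 8.84 to 9.00 on regular arrays. All 5 genes called are heat shock genes or their co-chaperones, and after quantile normalization 2 of the 15 were higher. The early response genes Junb (-0.09), Egr1 (-0.12) and Nr4a1 (-0.07) had lower means and did not pass (limma adjusted p = 0.636, 0.569 and 0.676). Fos, Jun, Jund, Ier2, Dusp1 and Zfp36 had higher means on deprived than on regular arrays and were not called either. Jun averaged 9.14 ± 0.63 on deprived arrays (SD, n = 5), against 8.54 ± 0.25 on regular arrays (SD, n = 6). In supplemented rats 8 of the 15 were lower (53.3%, against 22.9% of all genes) and 1 higher (6.67%, against 10.8%), with array means of 8.37 to 8.90, and 4 were lower and 2 higher after quantile normalization. The heat shock gene Hsph1 averaged 9.72 ± 0.28 on deprived arrays (SD, n = 5) and 8.81 ± 0.14 on regular arrays (SD, n = 6), a difference of 0.91 (SE 0.11, limma adjusted p = 0.000124).

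The co-chaperone gene Dnaja1 was higher in deprived rats by 0.55 (SE 0.07, limma adjusted p = 0.000411). Dnajb1 was higher by 0.89 (SE 0.18, limma adjusted p = 0.0167), but not without deprived replicate 4 (adjusted p = 0.0528). Hsp90aa1 was higher by 0.48 (SE 0.10, limma adjusted p = 0.0255), a call lost without any 1 of deprived replicates 4, 5 and 6 or regular replicates 1, 5 and 6 (adjusted p up to 0.0711).

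Of 12 tested glucocorticoid-induced genes, 3 were higher (25%, against 1.49% of all genes) and 0 lower in deprived rats. At an unadjusted p below 0.05 (limma) 6 were higher and 1 lower, beside 1190 and 626 of the 10879 genes. In supplemented rats 4 were lower (33.3%, against 22.9% of all genes) and 1 higher (8.33%, against 10.8%), and 4 each after quantile normalization. Their array means were 8.01 to 8.22 at 0 IU, 7.84 to 7.93 at 2 IU and 7.61 to 7.83 at 10 IU. Tsc22d3, which encodes GILZ, averaged 9.02 ± 0.17 on deprived arrays (SD, n = 5) and 8.39 ± 0.17 on regular arrays (SD, n = 6), with a difference of 0.63 (SE 0.11, limma adjusted p = 0.00505). Ddit4, an inhibitor of mTORC1 signalling, was higher by 0.55 (SE 0.08, limma adjusted p = 0.000988). Il7r was higher by 0.24 (limma adjusted p = 0.0491), but not when any of 13 single arrays was left out, all 11 deprived and regular arrays and supplemented replicates 4 and 6. Zbtb16 differed by -0.27 and did not pass (limma adjusted p = 0.0624), though it did without supplemented replicate 1, 3 or 5. Dusp1 is in both lists. The part of both groups of genes in the levels of Cd69 and Cxcr4 was not tested.

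Markers of other cells that a sort can carry along were measured beside these genes. Of the B cell markers, 7 of 12 were tested, and 4 were higher (57.1%, against 10.8% of all genes) and 0 lower in supplemented rats (limma). Cd22 of this list went the other way without a call, at 7.07 ± 0.39 on supplemented and 7.57 ± 0.58 on regular arrays (SD, n = 6 each). The list means were 6.12 to 6.28 at 0 IU, 5.99 to 6.37 at 2 IU and 6.21 to 6.51 at 10 IU. Of the macrophage, monocyte and neutrophil markers, 12 of 18 were tested. In supplemented rats 3 were higher (25%, against 10.8% of all genes) and 1 lower (8.33%, against 22.9%). Their list means were 6.53 to 6.61 on supplemented arrays, above the 6.38 to 6.52 of regular arrays. In deprived rats the macrophage means were 6.39 to 6.57 and 0 of the 12 were called (limma, 1 at an unadjusted p below 0.05). Ms4a1, Itgam, S100a8, S100a9 and Adgre1 lay below the level filter. Of the 11 tested CD4+ T cell markers, 4 were lower in supplemented rats, 0 higher and 7 not called. This is 36.4%, against 22.9% of all genes and 52.6% of the brightest 25%. Cd4 had the largest difference of the list, at -0.59 (SE 0.11). With the B cell list as a covariate, S1pr1, Klf2 and Selplg were lower in supplemented rats, at -0.42, -0.49 and -0.42 (adjusted p = 0.00799, 0.00386 and 0.00853). With the macrophage list, S1pr1 and Selplg were lower, at -0.51 and -0.41 (adjusted p = 0.0111 and 0.033), and Klf2 was not called, as given above.

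List means of 2 other marker lists were lower on deprived than on regular arrays, by a narrow margin. The 9 tested stromal and endothelial markers had list means of 6.61 to 6.68 on deprived and 6.71 to 6.88 on supplemented arrays, against 6.69 to 6.75 on regular arrays. The 6 tested dendritic cell markers had list means of 6.33 to 6.42 on deprived and 6.42 to 6.55 on supplemented arrays, against 6.43 to 6.49 on regular arrays. On both lists every deprived array lay below every regular array, but barely, with the nearest arrays at 6.68 and 6.69 and at 6.42 and 6.43. How often other list means part like this was not tested. For deprived minus regular 0 genes of either list were called (limma, 0 dendritic and 1 stromal gene at an unadjusted p below 0.05). For supplemented minus deprived, 5 of the 9 stromal and endothelial markers were higher (55.6%, against 18.6% of all genes) and 1 lower (11.1%, against 28.6%). Of the 6 dendritic markers 1 was higher (16.7%, against 18.6%), near the share of all genes, and 0 were lower (against 28.6%). The part of these cells in the levels of the 6 genes was not tested.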

How the data were processed

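RNA of sorted CD4+ T cells was hybridized to 17 Affymetrix rat gene arrays, 1 per sample, from 250 ng of total RNA each per the labels' protocols. The authors deposited 1 log2 expression value per transcript cluster and array, made with RMA and Partek 6.0 per the submitters' processing notes. RMA corrects background, normalizes by quantiles and summarizes probes. Base 2 was inferred from values that span 2.143 to 13.784. Neither a genome build nor a filter is stated in the sources at hand. Although RMA equalizes probe distributions, the spread of the deposited arrays differed, and how that arose was not tested. No scan date or batch was at hand, so none was tested.

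Of 29214 transcript clusters, a platform annotation paired 15310 with 1 symbol. Genes (14506) were represented by their cluster with the highest mean, and those in the lowest 25% by mean were left out, which kept 10879. The diets entered 1 linear model in limma 3.58.1 under R 4.3.3 (14 residual and 8.19 prior degrees of freedom), which was tested on simulated data. Nothing in the labels says that replicates were handled on separate days, so p-values cover only the spread among these arrays. Pairs of genes were compared with diet means removed by permutation within diets (100000 resamples).

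Members, gene lists and tests were chosen with earlier results of these data known. Named genes were the 6 members, up to 4 genes per list with the smallest F test p among those called, S1pr4 and Foxo1, the 3 genes most correlated with each member, and up to 4 genes per handling or glucocorticoid list with the smallest p for deprived minus regular. Some other genes of the handling and marker lists were named to describe those lists. One further gene of the rule is not reported here. Promoters came from a table of RefSeq genes of GRCr8, in which 2 of the 6 genes were matched. Alternatives covered scaling, filters, array weights, covariates, a replicate block and each array left out. Whole arrays correlated at 0.9773 to 0.9954 over all 136 pairs. Replicate numbers were checked on values from which mean levels had been removed. Of the 16 pairs of arrays with the same replicate number in different diets, 4 then correlated above 0.1 (from -0.207 to 0.195). Their median r was 0.002, against -0.001 for differently numbered pairs, so the numbers were not taken as pairs.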

Additional observations from a re-analysis of the deposited data

Results flagged for a closer look

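Selplg on regular replicate 1 stood at 9.14, while the median of the other 5 regular arrays was 8.71. The gap to its nearest neighbour was 0.85 of the range of the group, above Dixon's critical value of 0.625 for 6 samples. It was 1 such value among 21 groups of arrays examined, and chance flags about 1 in 20 groups. Without that array Selplg was still called lower in supplemented rats, as it was without any other single array (differences of -0.42 to -0.30).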

How the results depend on the processing

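Of the differences between diets for single genes, those of Cd69 and Cxcr4 for deprived minus regular kept direction and call in all 33 other settings. With array spread as a covariate, in which no supplemented array overlapped the other diets, the number of the 6 genes called was 0 for supplemented minus regular (4 as deposited) and 0 for supplemented minus deprived (3 as deposited), where 1192 and 1206 of all genes had an unadjusted p below 0.05, and 3 for the F test (5 as deposited). Selplg then reversed to 0.05 for supplemented minus regular (adjusted p = 0.927). With the macrophage covariate 2 of the 6 were called for supplemented minus regular, and with median centring 5 for supplemented minus deprived. Median centring moved the median of all genes to -0.078, 0.025 and -0.103 for supplemented minus regular, deprived minus regular and supplemented minus deprived, and turned the split of calls in the first to 312 higher and 3343 lower. For deprived minus regular the split was 162 higher and 20 lower as deposited, 26 and 14 after quantile normalization and 56 and 28 after cyclic loess.

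Of the 83 listed genes, 30 were called for supplemented minus regular, against 10 with the macrophage covariate, 0 with the spread covariate and 17 without supplemented replicates 2 and 5, an omission chosen after seeing the data. For deprived minus regular the 1 call became 0 with quantile normalization, cyclic loess, an ordinary linear model or the spread covariate, 6 with array weights and 2 in a fit to those 2 diets alone, and 0 to 1 with single arrays left out. For supplemented minus deprived the 47 calls became 29 with quantile normalization, 28 with cyclic loess and 0 with the spread covariate. Pairs of members called numbered 1 as deposited, 2 after quantile normalization and 0 without the 2 arrays farthest from the median. The difference in spread for deprived minus regular, 0.025 (exact permutation p = 0.0693), was 0.019 to 0.032 with single arrays left out and passed at 0.031 without deprived replicate 5 (adjusted p = 0.0381) and at 0.032 without regular replicate 1 (adjusted p = 0.0238).

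With the replicate number as a block, 4, 2 and 4 of the 6 genes were called for supplemented minus regular, deprived minus regular and supplemented minus deprived, and the added call was Selplg in the last (-0.23, adjusted p = 0.0326). The block changed no other call of the 6 genes. The causes of these changes were not tested. The number of arrays and their narrow log2 differences limit what can be called, and the table holds no signal over background.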
